A study of Mus musculus with 12 samples.

Results

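Interferon response genes are the genes that cells switch on when an interferon reaches its receptor. The set described here held 45 of them, listed by symbol and found in the deposited tables through the Ensembl gene identifiers of the mouse GRCm38 annotation. All 45 of the 45 listed genes had an identifier in the tables, none was at 0 in all 12 libraries, and all 45 passed the filter on low values that left 12637 genes for testing, out of 22381 genes that were not at 0. By role they fell into 4 transcription factors, 4 nucleic acid sensors, 2 genes of the ISG15 system, 16 antiviral effectors, 2 PARPs, 9 interferon-inducible GTPases and 8 genes of the immunoproteasome and MHC class I loading. Of the 45, 8 were classed as type I-like (Ifit1, Ifit2, Ifit3, Isg15, Oas1a, Oas2, Oasl1 and Oasl2) and 12 as gamma-like (Gbp2, Gbp3, Gbp6, Gbp7, Irgm1, Irgm2, Igtp, Psmb8, Psmb9, Psmb10, Tap1 and Tap2).

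RNA was sequenced from whole, flash-frozen livers of female C57BL/6 mice kept on a high fat high sugar diet (HFHS) for 14 weeks, a diet model of nonalcoholic steatohepatitis. The 4 groups had 3 libraries each. The HFHS group was untreated, the Curcumin and Calcitriol groups received intravenous liposomes carrying curcumin or calcitriol in weeks 12 and 13, with the liver harvest 2 weeks past the first dose. A group titled CNT completed the series. The labels give CNT the same strain and the same 14-week diet text as the other groups, so what set it apart is not stated, and the ages of the mice are not given. No group with empty liposomes was analysed here, so the drug cannot be told apart from the injection or the liposome. Whether each library is a separate animal is not stated in the labels, and the p-values then measure only the spread between these samples. Curcumin is a plant polyphenol and calcitriol is the hormonal form of vitamin D.

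Type I interferons signal through IFNAR1 and IFNAR2 to a complex that holds STAT2 and IRF9 and binds the interferon-stimulated response element (ISRE) of genes such as Isg15 and the Ifit and Oas families. Interferon gamma signals through IFNGR1 and IFNGR2 to the gamma-activated site (GAS) of its targets and induces IRF1, the guanylate-binding proteins, the IRG GTPases and the immunoproteasome. Most of these genes answer to both kinds of interferon to some degree, so the classes are labels of emphasis. In the liver both hepatocytes and resident immune cells respond to interferon, and only whole-liver RNA was measured, where fewer cells of a type and less RNA per cell cannot be told apart.

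The promoters of the members are shown first because the classes are named after signals that act through these elements. RefSeq promoter windows (GRCm38.p6, 250 bases before to 50 bases after the start site) were at hand for 33 of the 45 members. The ISRE was searched as GAAANNGAAA on both strands (TTTCNNTTTC when read on the other strand), and the GAS as TTCNNNGAA, which reads the same on both strands. The ISRE letters were found in 17 of the 33 members (51.5%) and in 3.99% of the 27025 genes of the table, and the GAS letters in 9 of the 33 (27.3%) and in 9.55% of all genes. Both classes held both elements. The ISRE was found in 4 of 7 type I-like and 6 of 10 gamma-like genes with a window, and the GAS in 2 of 7 and 4 of 10. A match describes the letters in this window and says nothing of binding. The stretches of 6 members are shown 5′ to 3′ on the gene's strand, with the matched letters in capitals. Isg15 (chr4:156200865-156200956, minus strand) and Ifit1 (chr19:34640725-34640823, plus strand) stand for the type I-like genes and carried ISRE matches. Gbp2 (chr3:142620544-142620623, plus strand) and Igtp (chr11:58199451-58199541, plus strand) stand for the gamma-like genes: Gbp2 carried an ISRE match, and Igtp a GAS match followed by an ISRE match. Irf1 (chr11:53769864-53769942, plus strand) carried a GAS match. Bst2 (chr8:71537577-71537668, minus strand), the member with the smallest adjusted p of the set, carried a GAS match that overlapped the first of its ISRE matches.
Isg15: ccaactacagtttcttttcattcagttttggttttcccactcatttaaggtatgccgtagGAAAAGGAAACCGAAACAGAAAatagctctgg
Ifit1: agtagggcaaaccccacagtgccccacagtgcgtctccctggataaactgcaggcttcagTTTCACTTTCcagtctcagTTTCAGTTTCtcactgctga
Bst2: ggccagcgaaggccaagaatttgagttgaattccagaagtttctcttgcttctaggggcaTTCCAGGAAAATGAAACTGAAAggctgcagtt
Gbp2: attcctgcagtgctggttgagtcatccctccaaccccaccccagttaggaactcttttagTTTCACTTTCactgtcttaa
Igtp: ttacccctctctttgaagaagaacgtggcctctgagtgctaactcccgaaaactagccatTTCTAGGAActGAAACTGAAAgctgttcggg
Irf1: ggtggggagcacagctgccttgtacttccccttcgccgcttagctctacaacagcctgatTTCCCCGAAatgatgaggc

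The deposited values are log2 values per gene, whose scale between libraries was set by the authors and whose depth is unknown. Below, a level is such a log2 value, given for replicates 1, 2 and 3 in that order, and a change is a difference of 2 group means on that scale with its standard error. A gene rose or fell where limma gave an adjusted p under 0.05 over all 12637 genes tested. Levels are not compared between genes, since the values are not per length. HFHS replicates 1 and 3 stood apart from the other 10 libraries before any member was considered. They scored -32.8 and -28.4 on the first principal component of all genes tested, while HFHS replicate 2 scored 3.09 and the libraries of the other groups lay between 0.396 and 14.4. Calls of members and pathway genes in comparisons with HFHS are therefore given also without them, where HFHS is left with 1 library.

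Across the 45 members, few single genes passed the test in any comparison, while many changes were small and on the same side of 0. In HFHS against CNT 1 member rose (Gbp2) and 1 fell (Bst2), beside 11.9% of all genes called, 6.55% higher and 5.36% lower. In Curcumin against CNT Bst2 fell and no member rose, beside 3.51% of all genes called, 1.6% higher and 1.91% lower. No member passed in Curcumin against HFHS (0.301% of all genes called), in Calcitriol against HFHS (2.21%), in Curcumin against Calcitriol (0%) or in Calcitriol against CNT (4.04%). At an unadjusted p under 0.05 the limma fit held 14 members in Curcumin against HFHS (24.7% of all genes), 7 in Calcitriol against HFHS (21.3%), 8 in Curcumin against Calcitriol (14.8%) and 7 in Calcitriol against CNT (23.4%). The 4-group F test called Bst2 alone (adjusted p = 0.0447), beside 8.55% of all genes.

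The signs of the changes were most one-sided where Curcumin was set against HFHS or Calcitriol. In Curcumin against HFHS 5 members lay above 0 (Bst2, Ifi27, Parp9, Psmb8 and B2m) and 40 below, where 49.2% of all genes lay above 0. The median change of the members was -0.21, against -0.0034 for all genes. In Curcumin against Calcitriol 5 lay above and 40 below 0 (50.9% of all genes above), with a median of -0.14. These comparisons share the Curcumin libraries. In HFHS against CNT 32 members lay above and 13 below 0 (47.9% of all genes above), with a median of 0.16, which was 0.0613 without HFHS replicates 1 and 3. The members were more evenly split in Calcitriol against HFHS, with 19 above and 26 below 0 (49.5% of all genes above) and a median of -0.05. Without HFHS replicates 1 and 3 that median was 0.0473, with 17 members below 0. The members were 13 above and 32 below in Curcumin against CNT (49.5% of all genes above, median -0.06), and 29 above and 16 below in Calcitriol against CNT (49.2% above, median 0.07). Members are not replicates of a group, and these counts carry no test.

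The intervals of the fit describe changes on the deposited log2 scale, gene by gene and without adjustment. Because the transformation behind that scale is not given, they do not bound the fold change of the RNA. On that scale the 95% interval of the change lay within 2-fold in either direction for 45 of 45 members in each of the 6 comparisons. It lay within 1.5-fold for 32 members in HFHS against CNT, 31 in Curcumin against HFHS, 38 in Calcitriol against HFHS, 35 in Curcumin against Calcitriol, 41 in Curcumin against CNT and 39 in Calcitriol against CNT.

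**Figure D1:**
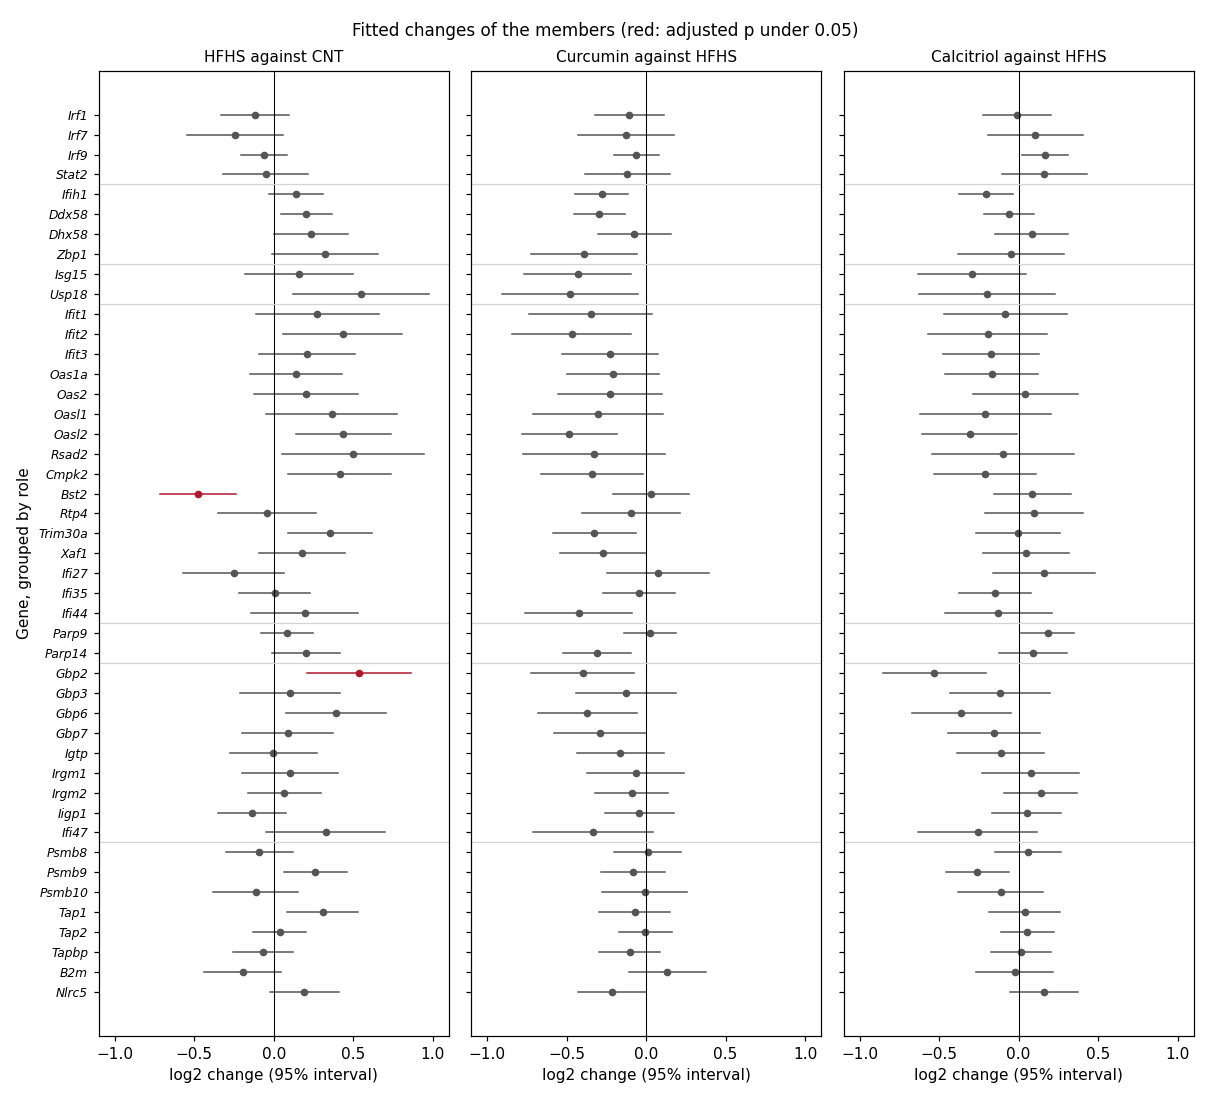
Fitted log2 change of each of the 45 members, grouped by role, in HFHS against CNT, Curcumin against HFHS and Calcitriol against HFHS. Points are differences of group means (3 libraries a group), bars are 95% intervals from limma, and red marks an adjusted p under 0.05. Bst2 at -0.48 and Gbp2 at 0.54 are red in the first panel, and 40 of 45 points lie left of 0 in the middle panel.

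The transcription factors carry the signal from receptor to gene. Irf9, the DNA-binding subunit of the type I complex, read 9.07, 9.16 and 9.07 in HFHS, 9.18, 8.97 and 8.97 in Curcumin, 9.26, 9.26 and 9.27 in Calcitriol, and 9.11, 9.17 and 9.18 in CNT. All 3 Calcitriol libraries were above the other 9 and differed little from each other. The change was 0.17 ± 0.07 (SE) in Calcitriol against HFHS (adjusted p = 0.174) and -0.23 ± 0.07 in Curcumin against Calcitriol (adjusted p = 0.218), and neither passed. Stat2, its partner, read 9.82, 9.87 and 9.78 in HFHS, 9.77, 9.50 and 9.86 in Curcumin, 10.01, 9.83 and 10.13 in Calcitriol, and 9.74, 9.74 and 10.15 in CNT. CNT replicate 3 was the highest of the 12 for Stat2, and all groups overlapped.

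Irf7, which amplifies type I interferon production, read 9.42, 9.28 and 9.21 in HFHS, 9.52, 9.13 and 8.88 in Curcumin, 9.50, 9.22 and 9.51 in Calcitriol, and 9.45, 9.60 and 9.60 in CNT. The CNT libraries were all above the HFHS libraries, by 0.24 ± 0.14 on average (adjusted p = 0.246). Irf1, an early target of interferon gamma, read 9.07, 9.09 and 9.36 in HFHS, 9.21, 8.99 and 9.01 in Curcumin, 9.35, 9.06 and 9.09 in Calcitriol, and 9.25, 9.27 and 9.35 in CNT. Here the Curcumin libraries were all below CNT (-0.22 ± 0.10, adjusted p = 0.255), and the HFHS and Calcitriol ranges overlapped both. None of the 4 transcription factors rose or fell in any comparison. All 4 lay below 0 in HFHS against CNT, the reverse of the 4 nucleic acid sensors, which all lay above 0.

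The sensors detect viral RNA or DNA inside cells and feed interferon production, and are themselves interferon targets. Ddx58, which encodes the RNA sensor RIG-I, read 9.09, 8.98 and 9.14 in HFHS, 8.85, 8.67 and 8.81 in Curcumin, 9.09, 8.93 and 9.01 in Calcitriol, and 8.82, 8.82 and 8.96 in CNT. All Curcumin libraries were below all HFHS and all Calcitriol libraries and overlapped CNT. Its change in Curcumin against HFHS was -0.29 ± 0.07, the smallest adjusted p of the set in that comparison (0.0724), and -0.23 ± 0.07 in Curcumin against Calcitriol (adjusted p = 0.244). With the replicate number as a block, Ddx58 passed in Curcumin against HFHS (-0.29 ± 0.06, adjusted p = 0.0474), the single member to do so beside 1.92% of all genes. Ifih1, which encodes the RNA sensor MDA5, read 9.37, 9.38 and 9.32 in HFHS, 9.08, 9.01 and 9.13 in Curcumin, 9.26, 9.11 and 9.07 in Calcitriol, and 9.07, 9.35 and 9.22 in CNT. The HFHS libraries were above all Curcumin and all Calcitriol libraries, with changes of -0.28 ± 0.08 (adjusted p = 0.0812) and -0.20 ± 0.08 (adjusted p = 0.156). Dhx58 (the regulatory sensor LGP2) and Zbp1 (a sensor of Z-form nucleic acid) were on the same side of 0 as the other sensors in HFHS against CNT and in Curcumin against HFHS, where the 4 changes ran from -0.39 for Zbp1 to -0.07 for Dhx58.

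ISG15 is a ubiquitin-like protein that is attached to other proteins after interferon, and USP18 removes it and dampens signalling at IFNAR2. Isg15 read 7.54, 7.39 and 7.32 in HFHS, 7.30, 6.87 and 6.78 in Curcumin, 7.24, 6.99 and 7.13 in Calcitriol, and 6.99, 7.22 and 7.56 in CNT. The HFHS libraries were above all 6 injected livers, while CNT, from 6.99 to 7.56, overlapped all 3 other groups. The change was -0.43 ± 0.16 in Curcumin against HFHS (adjusted p = 0.13) and -0.29 ± 0.16 in Calcitriol against HFHS (adjusted p = 0.302). Usp18 read 8.16, 7.53 and 8.07 in HFHS, 7.69, 7.42 and 7.22 in Curcumin, 7.74, 7.60 and 7.83 in Calcitriol, and 7.0, 7.71 and 7.40 in CNT. HFHS replicates 1 and 3 were the highest 2 of the 12 and HFHS replicate 2 lay among the other groups. The Usp18 change of 0.55 ± 0.20 in HFHS against CNT had an adjusted p of 0.0838.

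Among the 16 antiviral effectors, Bst2 stood on its own. BST2 (tetherin) holds budding enveloped virus at the cell surface. Its level was 10.73, 10.60 and 10.56 in HFHS, 10.83, 10.70 and 10.45 in Curcumin, 10.58, 10.77 and 10.81 in Calcitriol, and 11.01, 11.03 and 11.28 in CNT. All 3 CNT libraries were above the other 9, and the HFHS, Curcumin and Calcitriol ranges overlapped. Means were 10.63 ± 0.09 (SD, n = 3) in HFHS and 11.11 ± 0.15 in CNT. Bst2 fell by 0.48 ± 0.11 (SE) in HFHS against CNT, 1.39-fold (adjusted p = 0.0236), and by 0.45 ± 0.11 in Curcumin against CNT, 1.36-fold (adjusted p = 0.0479). In Calcitriol against CNT the change was -0.39 ± 0.11 and did not pass (adjusted p = 0.0685). Without HFHS replicates 1 and 3 the change in HFHS against CNT was -0.51 (adjusted p = 0.236), a fit in which the single remaining HFHS library borrows its spread from the other groups. The Bst2 call in HFHS against CNT held in 14 of 20 alternative fits, with adjusted p from 0.00563 to 0.236 and a change from -0.53 to -0.34. It was lost without HFHS replicate 1, HFHS replicate 3 or CNT replicate 2, with both of those HFHS libraries left out, after quantile normalization, and with only the 2 groups in the fit. The call in Curcumin against CNT held in 6 of 20, with adjusted p from 0.0182 to 0.152, and was lost with the replicate block (adjusted p = 0.0692) and when HFHS replicate 3 or any 1 Curcumin, Calcitriol or CNT library was left out.

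The Ifit genes encode proteins that bind foreign RNA and block its translation. Ifit1 read 7.92, 7.79 and 7.91 in HFHS, 7.94, 7.33 and 7.30 in Curcumin, 8.05, 7.61 and 7.71 in Calcitriol, and 7.38, 7.55 and 7.87 in CNT. Replicate 1 of Curcumin and of Calcitriol was as high as the HFHS libraries, and all groups overlapped. Ifit3 read 7.66, 7.39 and 7.67 in HFHS, 7.63, 7.37 and 7.05 in Curcumin, 7.61, 7.34 and 7.26 in Calcitriol, and 7.38, 7.33 and 7.38 in CNT. Its HFHS libraries were above CNT by the narrowest margin, at 7.39 against 7.38, and its value is uncertain because 51.2% of its 50-base stretches also occur in Ifit3b.

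The Oas genes encode sensors and enzymes of the oligoadenylate system that activates RNA decay, and the Oas-like proteins modulate sensing. Oasl2 read 7.61, 7.06 and 7.57 in HFHS, 7.05, 6.86 and 6.87 in Curcumin, 7.28, 7.03 and 6.99 in Calcitriol, and 7.01, 7.06 and 6.86 in CNT. HFHS replicates 1 and 3 were high, and HFHS replicate 2 was level with CNT replicate 2 and just above the highest Curcumin library. The change was -0.48 ± 0.14 in Curcumin against HFHS, the lowest of the 45 (adjusted p = 0.0848). Oas1a read 5.79, 5.31 and 5.64 in HFHS, 5.55, 5.33 and 5.24 in Curcumin, 5.57, 5.23 and 5.43 in Calcitriol, and 5.53, 5.48 and 5.31 in CNT. All groups overlapped, and Oas1a shares 57.6% of its 50-base stretches with Oas1g.

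The other effectors were described by their range. Over the 16, changes in HFHS against CNT ran from -0.48 for Bst2 to 0.50 for Rsad2 (viperin, an antiviral enzyme), 13 above and 3 below 0. In Curcumin against HFHS they ran from -0.48 for Oasl2 to 0.08 for Ifi27, 2 above and 14 below 0. Rsad2, its neighbour Cmpk2 and the antiviral regulator Trim30a had all 3 HFHS libraries above all 3 CNT libraries, with none past the test.

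PARP9 and PARP14 are ADP-ribosylation proteins of the interferon response. Parp9 read 9.72, 9.98 and 9.79 in HFHS, 9.91, 9.83 and 9.83 in Curcumin, 10.01, 10.02 and 10.01 in Calcitriol, and 9.67, 9.74 and 9.84 in CNT. As for Irf9, the 3 Calcitriol libraries were the highest 3 of the 12 and close to each other, and the change against CNT was 0.26 ± 0.08 (adjusted p = 0.0694). Parp14 read 9.66, 9.62 and 9.86 in HFHS, 9.64, 9.25 and 9.33 in Curcumin, 9.84, 9.82 and 9.76 in Calcitriol, and 9.43, 9.52 and 9.57 in CNT. Calcitriol lay above all Curcumin and all CNT libraries. Its changes were -0.40 ± 0.10 in Curcumin against Calcitriol (adjusted p = 0.1998) and -0.31 ± 0.10 in Curcumin against HFHS (adjusted p = 0.106).

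The inducible GTPases of the GBP and IRG families attack the membranes that enclose intracellular pathogens. Gbp2 read 7.74, 7.61 and 8.17 in HFHS, 7.66, 7.31 and 7.36 in Curcumin, 7.54, 7.17 and 7.22 in Calcitriol, and 7.41, 7.32 and 7.18 in CNT. HFHS replicate 3 was the highest of the 12, the HFHS libraries were above all Calcitriol and all CNT libraries, and Curcumin replicate 1 reached into the HFHS range. Gbp2 rose by 0.54 ± 0.15 (SE), 1.45-fold, in HFHS against CNT (adjusted p = 0.0401), from 7.30 ± 0.11 (SD, n = 3) in CNT to 7.84 ± 0.29 in HFHS. The change in Calcitriol against HFHS was -0.53 ± 0.15 and did not pass (adjusted p = 0.0812). Without HFHS replicates 1 and 3 the change against CNT was 0.31 (adjusted p = 0.541). The Gbp2 call held in 8 of 20 alternative fits, with adjusted p from 0.00409 to 0.541, and a change from 0.31 to 0.66. It was lost with both of those HFHS libraries left out, after quantile normalization, with only the 2 groups in the fit, and when any 1 of these libraries was left out: HFHS replicates 1 and 3, each CNT library, and replicates 2 and 3 of Curcumin and of Calcitriol.

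Gbp6 was ordered in part as Gbp2. Its HFHS libraries (5.11, 4.87 and 5.35) were above all Calcitriol libraries (4.86, 4.73 and 4.66), but CNT replicate 2, at 4.98, lay within the HFHS range. Irgm1 and Igtp showed no such order. Irgm1, which regulates the IRG family, read 9.72, 9.95 and 9.81 in HFHS, 9.98, 9.75 and 9.56 in Curcumin, 10.02, 9.77 and 9.93 in Calcitriol, and 9.49, 9.65 and 10.04 in CNT. Igtp read 9.45, 9.62 and 9.59 in HFHS, 9.56, 9.39 and 9.22 in Curcumin, 9.51, 9.41 and 9.39 in Calcitriol, and 9.42, 9.36 and 9.88 in CNT. CNT replicate 3 was the highest of the 12 for both, and the groups overlapped in every comparison. The 9 GTPases ran from -0.14 for Iigp1 to 0.54 for Gbp2 in HFHS against CNT, and all 9 lay below 0 in Curcumin against HFHS, from -0.40 to -0.04. Gbp6 is uncertain, since 70.7% of its 50-base stretches occur in other genes, and so to a lesser degree is Igtp, at 11.8%.

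The immunoproteasome cuts proteins into peptides, TAP moves the peptides into the endoplasmic reticulum, and B2M is the light chain of MHC class I. Psmb9 read 7.86, 8.14 and 8.12 in HFHS, 8.02, 7.96 and 7.89 in Curcumin, 7.87, 7.71 and 7.76 in Calcitriol, and 7.65, 7.79 and 7.90 in CNT. HFHS replicate 1 was the exception among the HFHS libraries, and the change in Calcitriol against HFHS was -0.26 ± 0.09 (adjusted p = 0.135). Psmb8 read 8.91, 9.08 and 9.23 in HFHS, 9.17, 9.09 and 8.99 in Curcumin, 9.08, 9.12 and 9.20 in Calcitriol, and 9.0, 9.16 and 9.32 in CNT. All groups overlapped for Psmb8, which shares 11.9% of its 50-base stretches with other genes, with changes between -0.09 (HFHS against CNT) and 0.06 (Calcitriol against HFHS).

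Tap1 read 8.69, 8.63 and 8.88 in HFHS, 8.82, 8.60 and 8.57 in Curcumin, 8.95, 8.60 and 8.78 in Calcitriol, and 8.35, 8.40 and 8.54 in CNT. The 3 CNT libraries were the lowest 3 of the 12, and the change was 0.31 ± 0.10 in HFHS (adjusted p = 0.0657), 0.24 ± 0.10 in Curcumin (adjusted p = 0.241) and 0.35 ± 0.10 in Calcitriol (adjusted p = 0.0765), each against CNT. B2m had the reverse order in part, at 14.73, 14.87 and 14.73 in HFHS, 14.97, 14.99 and 14.77 in Curcumin, 14.76, 14.74 and 14.76 in Calcitriol, and 14.89, 14.92 and 15.10 in CNT. CNT lay above HFHS and Calcitriol for B2m, by 0.19 ± 0.11 against HFHS (adjusted p = 0.251). Nlrc5, the transactivator of MHC class I genes, read 8.55, 8.47 and 8.78 in HFHS, 8.46, 8.17 and 8.53 in Curcumin, 8.74, 8.80 and 8.74 in Calcitriol, and 8.45, 8.39 and 8.38 in CNT. Calcitriol lay above all Curcumin and CNT libraries, with changes of 0.35 ± 0.10 against CNT (adjusted p = 0.0639) and -0.37 ± 0.10 in Curcumin against Calcitriol (adjusted p = 0.1998). Over the 8 genes of this role, 4 lay above and 4 below 0 in HFHS against CNT.

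**Figure D2:**
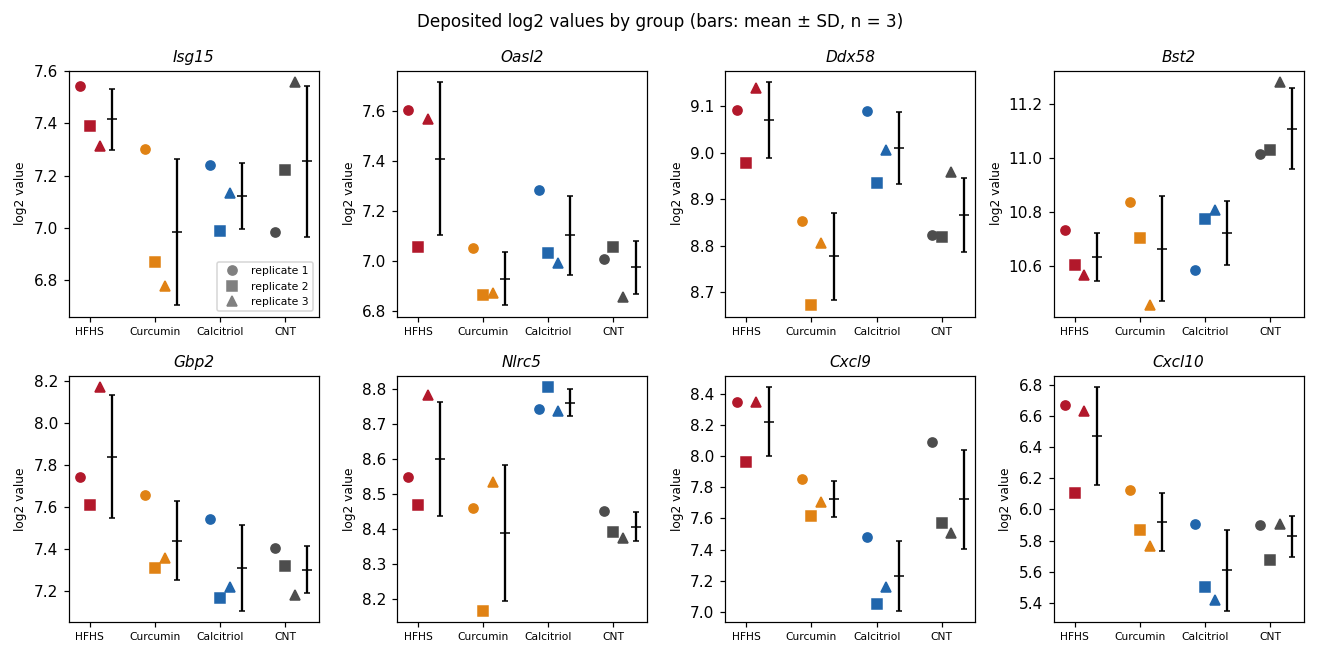
Deposited log2 level of 6 members (Isg15, Oasl2, Ddx58, Bst2, Gbp2 and Nlrc5) and of the interferon-inducible chemokines Cxcl9 and Cxcl10 in each library, with mean ± SD of the 3 libraries beside each group and marker shapes for the replicate number. Bst2 is higher in CNT (11.01 to 11.28) than in the other 9 libraries, and Cxcl9 is lower in Calcitriol (7.05 to 7.48) than in the other 9.

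Groups that did not overlap gave a further count. In HFHS against CNT 9 members were higher without overlap and 3 lower (Irf7, Bst2 and B2m), where 12.7% of all genes were higher and 14.1% lower. In Curcumin against HFHS 0 were higher and 6 lower (Ifih1, Ddx58, Isg15, Oasl1, Oasl2 and Ifi44), beside 11.9% and 11.6% of all genes (23.6% in either direction). In Calcitriol against HFHS 3 were higher and 5 lower, beside 12.6% and 11.8% (24.4% in either direction). In Curcumin against Calcitriol 3 were higher and 8 lower, beside 14.9% and 13.8%. In Curcumin against CNT 1 was higher (Tap1) and 4 lower, beside 12.9% and 12.7%. In Calcitriol against CNT 11 were higher and 2 lower (Bst2 and B2m), beside 14.9% and 17.4%. In either direction together, the 12 members of HFHS against CNT lay near the 26.9% of all genes without overlap there.

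The type I-like and gamma-like classes were then set side by side. The 8 type I-like genes had a median change of 0.24 in HFHS against CNT, -0.32 in Curcumin against HFHS, -0.18 in Calcitriol against HFHS and -0.16 in Curcumin against Calcitriol. For the 12 gamma-like genes these medians were 0.09, -0.09, -0.11 and -0.05. All 8 type I-like genes lay above 0 in HFHS against CNT and below 0 in Curcumin against HFHS, and of the 12 gamma-like genes 9 lay above and 11 below. No type I-like gene passed the test in any comparison, and Gbp2 was the gamma-like gene that did.

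Per library, each class was summarised as the mean deviation of its genes from their 12-library mean. The type I-like score was 0.36, 0.01 and 0.22 in HFHS, 0.11, -0.26 and -0.27 in Curcumin, 0.20, -0.11 and -0.02 in Calcitriol, and -0.13, -0.09 and -0.03 in CNT. The gamma-like score was -0.04, 0.10 and 0.23 in HFHS, 0.13, -0.09 and -0.16 in Curcumin, 0.09, -0.06 and -0.06 in Calcitriol, and -0.14, -0.03 and 0.03 in CNT. HFHS replicate 1 was the library where the classes parted, with a type I-like minus gamma-like difference of 0.40. In the other 11 libraries that difference lay between -0.16 and 0.11. The difference averaged 0.10 ± 0.26 (SD, n = 3) in HFHS, -0.10 ± 0.07 in Curcumin, 0.03 ± 0.08 in Calcitriol and -0.04 ± 0.04 in CNT. With HFHS replicate 2 as the lone HFHS library, the class difference turned from 0.15 to -0.08 in HFHS against CNT and from -0.24 to 0.04 in Curcumin against HFHS.

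**Figure D3:**
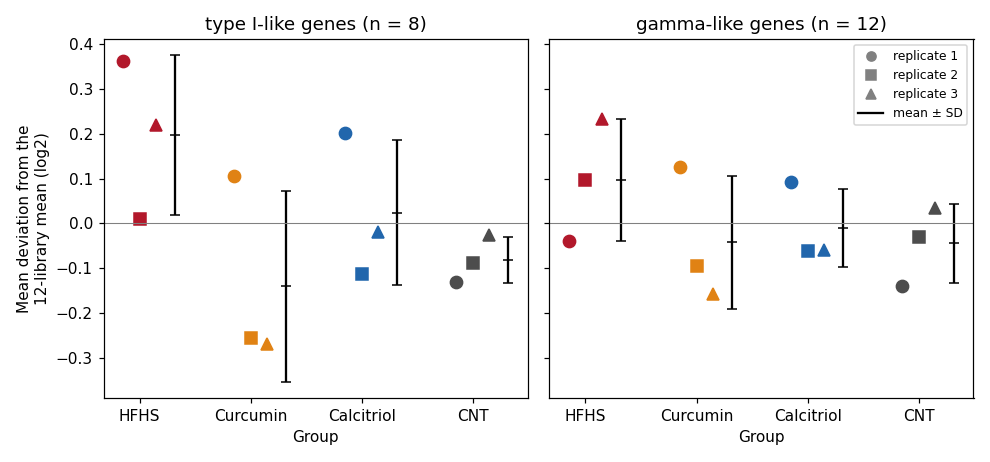
Mean log2 deviation of the 8 type I-like genes (left) and the 12 gamma-like genes (right) from their 12-library means, 1 point a library, with mean ± SD of the 3 libraries beside each group. In Curcumin and in Calcitriol, replicate 1 (0.11 and 0.20 on the left) lies above replicates 2 and 3, and HFHS replicate 1 is the highest library on the left (0.36) but below 0 on the right (-0.04).

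Within Curcumin, Calcitriol and CNT many members shared the same highest or lowest library. Curcumin replicate 1 was the highest library of its group in 38 of 45 members (84.4%), against 29.4% of all genes tested, and the lowest in 0. Calcitriol replicate 1 was the highest of its group in 31 members (68.9%, against 33.5% of all genes), and CNT replicate 1 the lowest of its group in 30 (66.7%, against 33.6%). In HFHS the highest library was replicate 1 in 16 members, replicate 2 in 12 and replicate 3 in 17 (35.6%, 26.7% and 37.8%, against 31.2%, 41.1% and 27.7% of all genes). The median SD within a group was 0.182 for the members and 0.091 for all genes in Curcumin, 0.119 and 0.083 in Calcitriol, 0.138 and 0.114 in CNT, and 0.137 and 0.124 in HFHS. Without Curcumin replicate 1 the median change of the members in Curcumin against HFHS was -0.28, and without Curcumin replicate 2 it was -0.12.

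As a description over the 12 libraries, which share preparation and scaling, the median correlation between 2 members was 0.36 over 990 pairs. It was 0.62 within the type I-like class (28 pairs), 0.40 within the gamma-like class (66 pairs) and 0.33 between the classes (96 pairs). The first principal component of the members took 50.4% of their variance. Ifit1 followed the mean of the 45 members most closely (r = 0.97), then Xaf1 (0.92) and Zbp1 (0.89), each of which is part of that mean. Bst2 (-0.01), Ifi27 (0.00), Iigp1 (0.03) and B2m (-0.23) did not follow it.

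**Figure D4:**
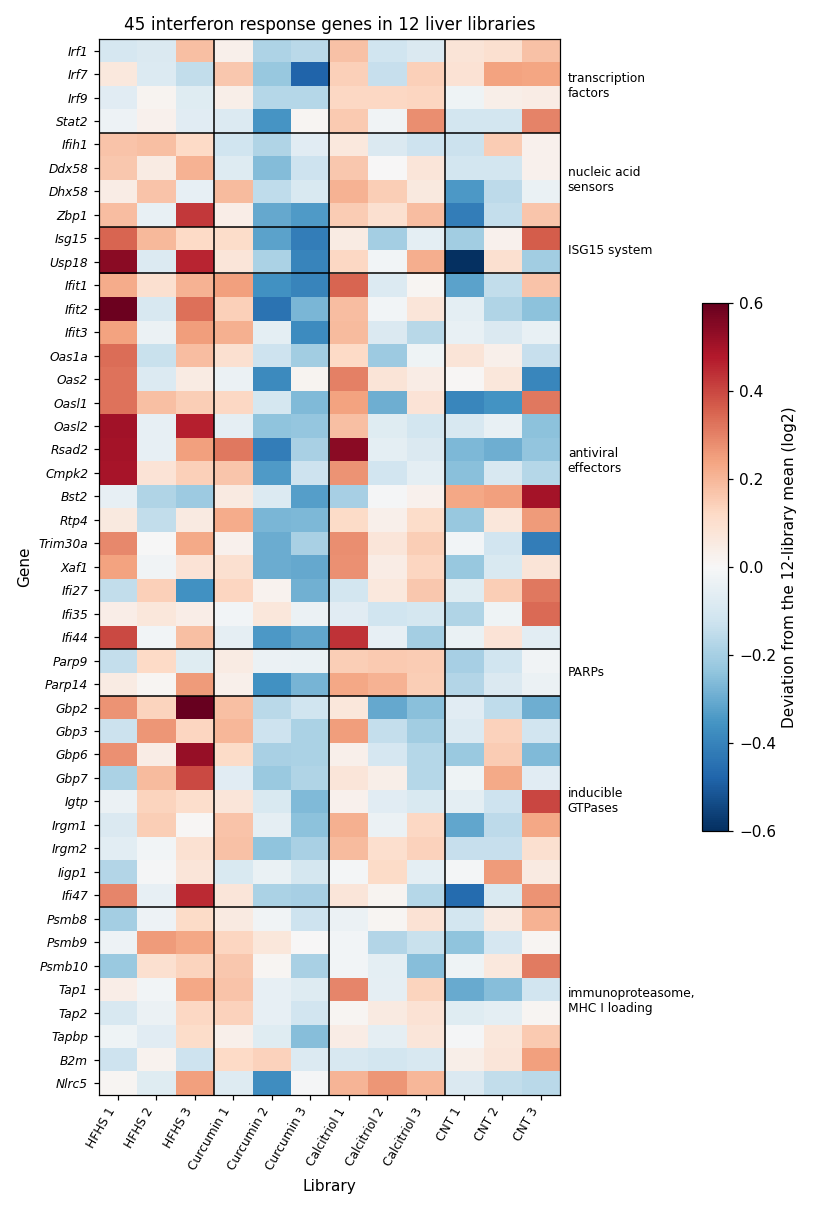
Deviation of each of the 45 members from its 12-library mean (log2, values past the ends of the colour scale drawn at its ends), with libraries in columns and genes in rows by role. Curcumin replicates 2 and 3 are blue in most rows while Curcumin replicate 1 is red in most, and the Bst2 row is red in the 3 CNT libraries.

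The rest of the pathway was read from lists of ligands, receptors, signalling proteins, adaptors, inhibitors and further targets, with 92 genes tested beside the members. In HFHS against CNT 11 rose and 2 fell, beside the 11.9% of all genes called there. In Calcitriol against HFHS 1 rose and 2 fell, where 0.973% of all genes rose and 1.23% fell. In Calcitriol against CNT 4 rose and 0 fell, where 1.77% of all genes rose and 2.27% fell, and in the other 3 comparisons none rose or fell. Each of the 13 calls in HFHS against CNT and each of the 3 in Calcitriol against HFHS was lost when HFHS replicates 1 and 3 were left out, while the 4 in Calcitriol against CNT (Tlr7, Ptpn6, Isg20 and Lgals3bp) were kept there. Those 4 held in 15, 14, 8 and 9 of 20 alternative fits, and each was lost when any 1 Calcitriol library or CNT replicate 2 was left out. With the replicate block 19 rose and 2 fell in HFHS against CNT, beside 14.7% of all genes called. In Calcitriol against CNT 5 rose and 2 fell (4.96% of all genes), and in Curcumin against HFHS 0 rose and 1 fell (1.92%). In Curcumin against CNT 1 rose, Ptpn6, and 0 fell (3.29%). In Calcitriol against HFHS 1 rose and 2 fell (2.22%), and in Curcumin against Calcitriol 0 rose and 0 fell (0%). Tlr3 was among the 5 in Calcitriol against CNT and passed there with the block alone (0.35 ± 0.08, adjusted p = 0.0385, and 0.0596 without it).

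None of the listed interferon genes passed the filter. Of 13 listed ligands and inducers, 5 were not at 0 and 1, Il18, passed the filter. Ifng lay between -0.85 and -0.77 in all 12 libraries, where a value below the filter of 3.32 carries no usable difference, and Ifnb1 and the listed Ifna genes were not found or at 0. The receptors were measured well. Ifnar1 read 9.30, 9.0 and 9.26 in HFHS, 9.09, 9.23 and 9.25 in Curcumin, 9.12, 9.21 and 9.18 in Calcitriol, and 8.98, 9.05 and 9.04 in CNT, and it passed in no comparison.

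Ifngr1, the ligand-binding chain of the gamma receptor, read 9.08, 8.61 and 8.97 in HFHS, 8.71, 8.64 and 8.65 in Curcumin, 8.77, 8.78 and 8.74 in Calcitriol, and 8.51, 8.43 and 8.59 in CNT. All HFHS libraries were above CNT, and HFHS replicate 2, at 8.61, was below all 6 injected livers. Ifngr1 rose by 0.37 ± 0.10 in HFHS against CNT (adjusted p = 0.0349), Ifngr2, the signalling chain, by 0.46 ± 0.10 (adjusted p = 0.019), and Il10rb, a shared cytokine receptor chain used by type III interferons, by 0.41 ± 0.12 (adjusted p = 0.0496). Those 3 calls held in 9, 15 and 3 of 20 alternative fits, and each was lost without HFHS replicate 1, CNT replicate 1 or CNT replicate 2. Without HFHS replicates 1 and 3 the changes were 0.10, 0.33 and 0.07.

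Of the signalling genes, Irf8, a factor of myeloid and dendritic cells, rose by 0.53 ± 0.14 in HFHS against CNT. Irf2, a repressor of interferon targets, fell by 0.37 ± 0.09 and Irf3, which drives type I production, by 0.32 ± 0.08. Stat3 rose by 0.58 ± 0.11 in Calcitriol against HFHS (adjusted p = 0.0311), from 11.12, 11.29 and 11.08 in HFHS to 11.59, 11.71 and 11.92 in Calcitriol. The calls of Irf8, Irf2, Irf3 and Stat3 held in 10, 14, 12 and 11 of 20 alternative fits, and each was lost without HFHS replicate 1, HFHS replicate 3 or CNT replicate 2. Without those 2 HFHS libraries the changes were 0.13 for Irf8, -0.22 for Irf2, -0.17 for Irf3 and 0.45 for Stat3. Socs1, the main feedback inhibitor, lay between 1.66 and 1.8, below the filter. The endosomal RNA and DNA sensors Tlr7 and Tlr9 rose by 0.45 ± 0.12 and 0.38 ± 0.11 in HFHS against CNT, and the phosphatase gene Ptpn6 by 0.47 ± 0.08. The HFHS calls of Tlr7, Tlr9 and Ptpn6 held in 12 of 20, 6 of 19 and 17 of 20 alternative fits, and the changes were 0.42, 0.18 and 0.32 without HFHS replicates 1 and 3. Tlr7 and Tlr9 were lost after quantile normalization and without HFHS replicate 1 or any 1 CNT library, and Ptpn6 without CNT replicate 2. Tlr7 was lost also without Calcitriol replicate 2, and Tlr9 without HFHS replicate 3 or any 1 injected liver other than Calcitriol replicate 2. Tlr7 (0.56 ± 0.12) and Ptpn6 (0.37 ± 0.08) also rose in Calcitriol against CNT.

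Among the further targets, Cxcl9, a chemokine gene that draws T cells and is induced by interferon gamma, read 8.35, 7.96 and 8.35 in HFHS, 7.85, 7.62 and 7.71 in Curcumin, 7.48, 7.05 and 7.16 in Calcitriol, and 8.09, 7.57 and 7.51 in CNT. The Calcitriol libraries were the lowest 3 of the 12. Cxcl9 fell by 0.99 ± 0.16 in Calcitriol against HFHS, 1.99-fold (adjusted p = 0.0217), and the change in Curcumin against HFHS was -0.50 ± 0.16 (adjusted p = 0.115). With the replicate block it passed in Curcumin against HFHS (-0.50 ± 0.10, adjusted p = 0.0474) and in Calcitriol against CNT (-0.49 ± 0.10, adjusted p = 0.0291, and 0.105 without the block). It passed with the block also in HFHS against CNT (0.50 ± 0.10, adjusted p = 0.0165, and 0.0648 without it), where libraries share only a number. The difference between the treatments, 0.49 ± 0.16 in Curcumin against Calcitriol, did not pass (adjusted p = 0.25). Without HFHS replicates 1 and 3 the Cxcl9 change was -0.73 (adjusted p = 0.305), and the call held in 14 of 20 alternative fits, being lost also without HFHS replicate 1, HFHS replicate 3, Calcitriol replicate 2 or Calcitriol replicate 3 and with only the 2 groups.

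Cxcl10, induced by both kinds of interferon, read 6.67, 6.11 and 6.64 in HFHS, 6.12, 5.87 and 5.77 in Curcumin, 5.91, 5.5 and 5.42 in Calcitriol, and 5.90, 5.67 and 5.91 in CNT. HFHS replicate 2 was level with Curcumin replicate 1, and the other HFHS libraries were above every other library. Cxcl10 rose by 0.64 ± 0.17 in HFHS against CNT (adjusted p = 0.033) and fell by 0.86 ± 0.17 in Calcitriol against HFHS, 1.82-fold (adjusted p = 0.0314). With HFHS replicate 2 alone for HFHS these became 0.28 (adjusted p = 0.638) and -0.50 (adjusted p = 0.4), and the 2 calls held in 14 and 11 of 20 alternative fits. Both were lost without HFHS replicate 1, HFHS replicate 3 or CNT replicate 2 and with only the 2 groups. The first was also lost without CNT replicate 1, and the second without replicate 2 or 3 of Curcumin or of Calcitriol.

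Mx1, a classical type I target, read 4.67, 4.46 and 4.70 in HFHS, 4.44, 4.01 and 4.15 in Curcumin, 4.59, 4.41 and 4.2 in Calcitriol, and 4.16, 4.16 and 4.36 in CNT. HFHS lay above CNT and above Curcumin without passing (0.38 ± 0.13, adjusted p = 0.0685, and -0.41 ± 0.13, adjusted p = 0.104). Samd9l (0.58 ± 0.11), Lgals3bp (0.39 ± 0.09) and the MHC class II transactivator gene Ciita (0.70 ± 0.21) rose in HFHS against CNT, and Isg20 (0.48 ± 0.12) and Lgals3bp (0.35 ± 0.09) in Calcitriol against CNT. The HFHS calls of Samd9l, Lgals3bp and Ciita held in 17, 14 and 6 of 20 alternative fits, and the changes were 0.44, 0.28 and 0.15 without HFHS replicates 1 and 3. Each of the 3 was lost without HFHS replicate 1, and Lgals3bp and Ciita also without HFHS replicate 3 or CNT replicate 2. Ciita was lost as well without CNT replicate 3 or any 1 injected liver, and Lgals3bp without CNT replicate 1. Of the 26 further type I targets, 2 rose and 0 fell in HFHS against CNT, near the 6.55% of all genes that rose, and 21 lay above 0, where 47.9% of all genes did. Of the 18 further gamma targets tested, 2 rose and 0 fell, and 15 lay above 0, beside the same shares of all genes. Of 12 other MHC class I and loading genes and 3 constitutive proteasome subunits, 0 rose and 0 fell in any comparison without the replicate block. With the block the constitutive subunit gene Psmb7 fell in Calcitriol against CNT (-0.33 ± 0.08, adjusted p = 0.0485, and 0.0654 without the block). The MHC class I gene H2-Q4 rose with the block in HFHS against CNT (0.32 ± 0.09, adjusted p = 0.0355, and 0.0562 without it).

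Several marker lists differed in HFHS against CNT, beside 6.55% of all genes that rose and 5.36% that fell there. The macrophage, dendritic and stellate sums were highest in HFHS replicates 1 and 3. The marker calls come from the fit of all 12 libraries and are not given without those 2. The summed level of the 8 infiltrating macrophage markers (values before log2) was 4978, 2172 and 2886 in HFHS and 1559 to 2150 in CNT. It was 1998 to 2527 in Curcumin and 2043 to 2773 in Calcitriol, so HFHS replicate 2 lay among the injected livers. Of 7 tested markers 3 rose (Cd68, Trem2 and Gpnmb), while Lyz2, which made up most of each sum, did not pass. The sum of 6 conventional dendritic cell markers was 200.9, 109.3 and 246 in HFHS and 93.7 to 118 in the other 9 libraries. Of 4 tested markers 1 rose (Itgax), and Itgax alone made up most of the sum in HFHS replicates 1 and 3. Between HFHS and CNT 0 of the 4 were higher without overlap. Stellate cell and fibroblast markers summed to 11750, 6101 and 10810 in HFHS and 4929 to 7005 elsewhere, with 4 of 6 risen (Dcn, Lrat, Des and Col3a1). The sum of 13 T and NK cell markers was 142.1 to 168.4 in HFHS and 125.2 to 141.0 in the other groups, with 1 of 8 risen (Cd4), near the share of all genes. The 6 hepatocyte markers were present in every library, with Alb between 19.65 and 20.72, but all 6 lay below 0 in HFHS against CNT and 2 fell, Cps1 by 0.84 and Ass1 by 1.09.

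The cholangiocyte sum was also highest in HFHS replicates 1 and 3, at 237.9, 109.8 and 161.7 in HFHS and 93.0 to 138.1 elsewhere. Of its 4 markers 0 rose in HFHS against CNT. Most other lists were ordered differently. Endothelial markers summed to 4379 to 4719 in Calcitriol, 2836 to 3205 in Curcumin, 2906 to 4375 in HFHS and 2904 to 4409 in CNT. Kupffer cell markers summed to 7370 to 9799 in Calcitriol, 5160 to 8209 in HFHS, 6103 to 7622 in Curcumin and 4613 to 5889 in CNT. Of the 6, 2 rose in Calcitriol against CNT (Clec4f and Vsig4), where 1.77% of all genes rose. There 1 erythroid marker rose and 1 hepatocyte marker fell, where 2.27% of all genes fell. In Calcitriol against HFHS 1 endothelial and 1 erythroid marker rose and 1 stellate marker fell, where 0.973% of all genes rose and 1.23% fell. In Curcumin against CNT 1 erythroid marker rose, beside 1.6% of all genes. Neutrophil markers summed to 95.1 to 198.1 in Calcitriol, 81.1 to 141.8 in HFHS and 61.6 to 98.3 in the other 2 groups. B cell marker sums overlapped between all groups, from 412.4 to 1120. The 4 plasmacytoid dendritic cell markers were all below the filter, summing to between 15.6 and 19.5. Erythroid markers summed to 10720 to 13630 in the injected livers and 4109 to 8813 in the others. Adipocyte markers summed to 611.2 in HFHS replicate 3 and 21.3 to 35.4 elsewhere. Within HFHS the macrophage, conventional dendritic and stellate sums were lowest in replicate 2. That library was the lowest HFHS library in 22 of 45 members (48.9%, against 38.7% of all genes) and the highest in 12, and its gamma-like score of 0.10 lay above that of replicate 1. The part of these cells in the members' values was not tested.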

How the data were processed

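Total liver RNA was extracted on silica columns and sequenced as Illumina libraries, per the labels' protocols. The deposited tables hold 1 value per Ensembl gene and library on a log2 scale, as read from the values. The submitters' processing notes name STAR 2.4.0d, DESeq2 1.8.1 and GRCm38, and the roles and the transformation are not given in the sources used here. Some low genes are nearly constant across the libraries, and without counts the depth of each library is unknown.

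Samples were grouped by their titles. Genes of at least 10 before log2 (3.32) in 3 libraries were fitted with limma 3.58.1 (R 4.3.3; 4 group means over 12 libraries, trend and robust estimation). The p-values of the 6 comparisons and of a 4-group F test were Benjamini-Hochberg adjusted over all 12637 genes, with a threshold of 0.05. The script was tested on simulated data.

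The members and lists were chosen with earlier results of these data known. Library values are given for members past the threshold, for the 4 with the smallest p where none passed, and for a set list of members and pathway genes, of which 1 pathway gene is not reported here. Alternatives changed the filter, scaling, variance model, library weights, libraries fitted, replicate block and class lists. Values are uncertain where 50-base stretches of a gene recur in another gene, which held for over 10% of stretches in 10 members. Replicate numbers come from the titles, which do not say what they mark. The rule for a pairing was that every same-numbered pair's deviations correlate over 0.1. It was met in Curcumin against HFHS (0.16 to 0.321) and Calcitriol against CNT (0.205 to 0.372), as read from these same data. Blocked values that change a call stand beside those results. The block was a replicate factor shared by all 4 groups, not a pairing of the 2 groups compared. It thus also joined groups whose same-numbered deviations ran opposite (Curcumin and CNT, -0.383 to -0.022).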

Additional observations from a re-analysis of the deposited data

How the results depend on the processing

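The sign of the member median held over all alternatives except in Calcitriol against HFHS (-0.111 to 0.0473). The class difference kept its sign in Curcumin against Calcitriol and in Calcitriol against CNT. It crossed 0 in HFHS against CNT (-0.078 to 0.252) and Curcumin against HFHS (-0.295 to 0.0398). The same held in Calcitriol against HFHS (-0.235 to 0.181) and Curcumin against CNT (-0.115 to 0.0317). Counts of members called depended on the setting. With library weights the counts were 14 in HFHS against CNT, 11 in Curcumin against HFHS, 5 in Calcitriol against HFHS, 2 in Curcumin against Calcitriol, 3 in Curcumin against CNT, 7 in Calcitriol against CNT and 17 in the F test. The members' shares in the 6 comparisons, 31.1%, 24.4%, 11.1%, 4.44%, 6.67% and 15.6%, were below those of all genes called with the weights, 37.9%, 27.1%, 21.6%, 4.57%, 21% and 24.7%. For the F test the share of all genes is given here for the main fit alone (8.55%). After quantile normalization the counts were 0 in HFHS against CNT (8.85% of all genes) and 0 in Curcumin against CNT (3.2%). In Calcitriol against CNT the count was then 1 (2.22% of members, beside 3.39% of all genes). With only the 2 groups compared the counts were 0 in HFHS against CNT (0.103% of all genes) and 2 in Calcitriol against CNT. Those 2 were 4.44% of members, beside 4.34% of all genes. In Curcumin against CNT the count was 0 with no filter (1.35% of all genes) and 0 with no trend and no robust estimation (3.24%). Without HFHS replicates 1 and 3 the member median was 0.0613 in HFHS against CNT and 0.0473 in Calcitriol against HFHS. There 17 members lay below 0 in Calcitriol against HFHS, and the class difference in Curcumin against HFHS was 0.0398. Over all alternatives, the genes called among all tested ran from 13 to 4790 around 1505 in HFHS against CNT, from 0 to 3420 around 38 in Curcumin against HFHS, from 0 to 2725 around 279 in Calcitriol against HFHS, from 0 to 577 around 0 in Curcumin against Calcitriol, from 94 to 2660 around 443 in Curcumin against CNT and from 73 to 3120 around 511 in Calcitriol against CNT. The causes were not tested.

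Leaving out 1 library at a time gave 0 to 10 members called in HFHS against CNT, 0 to 11 in Curcumin against HFHS, 0 to 4 in Calcitriol against HFHS, 0 to 1 in Curcumin against CNT, 0 to 3 in Calcitriol against CNT and 0 to 12 in the F test. The counts of 10, 11 and 4 came without HFHS replicate 2, where 29.4%, 25.4% and 17.4% of all genes were called. These shares were above the members' 22.2%, 24.4% and 8.89%. The 3 in Calcitriol against CNT also came there, at 6.67% of members, beside 9.04% of all genes. Where 1 was called in Curcumin against CNT (2.22% of members), 1.08% to 5.9% of all genes were called. In HFHS against CNT the count was 0 without HFHS replicate 1, HFHS replicate 3 or CNT replicate 2. The member median then ran from 0.11 to 0.18 in HFHS against CNT, from -0.28 to -0.12 in Curcumin against HFHS and from -0.10 to -0.0041 in Calcitriol against HFHS. The class difference ran from 0.02 to 0.25 in HFHS against CNT and from -0.30 to -0.13 in Curcumin against HFHS. In Calcitriol against HFHS it ran from -0.235 to 0.0978, so its sign turned with the library left out. It ran from -0.169 to -0.0618 in Curcumin against Calcitriol. Against CNT it ran from -0.115 to 0.0317 in Curcumin and from 0.0381 to 0.181 in Calcitriol.

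Of 18 same-numbered pairs, 9 had correlated deviations over 0.1 (from -0.383 to 0.372), among them all 3 of HFHS and Curcumin and all 3 of Calcitriol and CNT, and 9 of 12 libraries correlated best with one of their own number, a hint from the data and not from the design. In the other 4 comparisons the libraries share only a number. With the replicate block, 7 members were called in HFHS against CNT (15.6%, beside 14.7% of all genes), 1 in Curcumin against HFHS (2.22%, beside 1.92%), 0 in Curcumin against CNT (3.29% of all genes) and 2 in the F test. The 7 were Bst2, Gbp2, Ifit2, Oasl2, Rsad2, Cmpk2 and Trim30a. In Calcitriol against CNT and the other 2 comparisons the block called 0 members.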
